A study of Oryza sativa with 12 samples.

Results

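Catalase, the ascorbate peroxidases and a mitochondrial peroxiredoxin were followed in rice embryonic axes. The list held 10 genes, CAT-A, APX1 to APX8 and PRXIIF. A gene was read through the probe set annotated to its symbol or a synonym that had the highest mean over the 12 arrays, and it was described if that probe set lay above log2 4 in at least 3 arrays. Of the 10 genes, 9 had a probe set in the annotation (none was listed for APX3), and 8 were kept, among 11516 genes with a kept probe set in the whole table. The 8 were CAT-A, APX1, APX2, APX4, APX6, APX7, APX8 and PRXIIF. They were covered by 11 kept of 14 annotated probe sets.

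The study followed rice seed ageing in Oryza sativa cultivar Nipponbare, in mature seed whose tissue label reads seed and whose growth protocol names the embryonic axis. All seed was first held for 3 days at 25 °C and 85% relative humidity. The control seed then stayed at 25 °C and the aged seed went to 40 °C, both at 85% relative humidity, for 14 days by one label and 15 days by another, and both ended with 3 days at 25 °C and 32% relative humidity. Each temperature was split by its title into arrays with the suffix 0H and arrays with the suffix 4H, which the labels do not define. This gave 4 groups of 3 numbered replicates: 25 °C 0H, 40 °C 0H, 25 °C 4H and 40 °C 4H. Seed kept at 45 °C was not analysed here. The labels do not say that the replicates came from separate seed lots, so the p-values reflect nothing beyond the spread among these 12 samples, part of which may be technical.

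Hydrogen peroxide is removed in plant cells by several enzyme families. Catalases split it in peroxisomes without a reductant. Ascorbate peroxidases reduce it to water at the expense of ascorbate, with separate isoforms in the cytosol, peroxisomes, mitochondria and chloroplasts, and the oxidised ascorbate is recycled by reductases that draw on NADH, NADPH or glutathione. Peroxiredoxins reduce peroxides through a reactive cysteine that thioredoxins or glutaredoxins restore. In dry seed these enzymes are studied because oxidation accompanies the loss of vigour during storage and because reactive oxygen is formed again once respiration resumes on imbibition.

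Each value is a log2 signal of one probe set, normalised across arrays by the authors, so it is relative to the other transcripts of the same array and is not compared between probe sets. In whole axes, fewer cells of a type and less RNA per cell cannot be told apart. The array medians lay between 1.49 and 1.59, and the share of probe sets over log2 4 was between 25.5% and 27.7%. With 3 arrays a group, the precision is limited by their number. The 3′ minus 5′ signal difference of the Gapdh control probe sets, which grows as RNA is shortened, was 2.24 ± 0.17 (SD, n = 3) at 25 °C 0H, 3.66 ± 0.29 at 40 °C 0H, 2.34 ± 0.09 at 25 °C 4H and 2.77 ± 0.20 at 40 °C 4H. That of Actin was 2.44, 3.33, 2.97 and 2.95 in the same order, so it was higher at 40 °C only at 0H. The mean signal of the poly-A spike-ins was 9.00, 9.01 and 5.06 in the 40 °C 0H replicates and between 2.69 and 6.45 in the other 9 arrays, so replicates 1 and 2 of 40 °C 0H stood apart. The 18S ribosomal RNA signal was 6.82 in replicate 3 of 25 °C 4H and 7.87 in replicate 3 of 40 °C 0H, against 10.2 to 11.9 in the other 10 arrays. Embryo and mature seed markers (7 of 8 matched genes kept) had a mean signal between 10.04 and 10.3 in every array, but single markers moved both ways. At 4H the group mean of the homeobox gene OSH1 was 5.79 at 25 °C and 3.78 at 40 °C, and that of the heat shock factor HSFA9 was 8.34 and 10.01. The mean signal of endosperm markers (6 of 7 kept) ranged from 6.79 to 7.77 at 25 °C 0H, 8.13 to 8.20 at 40 °C 0H, 6.81 to 7.97 at 25 °C 4H and 7.29 to 7.45 at 40 °C 4H. Single endosperm markers differed. At 0H the group means of GBSS1 (6.46 at 25 °C and 8.76 at 40 °C), RA14, PROLM25 and Sbe1 were higher at 40 °C. Those of GLUA1 (5.83 and 5.82) and GLUA2 (6.39 and 6.42) hardly moved. The part of RNA quality, spike-ins, ribosomal RNA and tissue markers in the changes below was not tested.

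**Figure D1:**
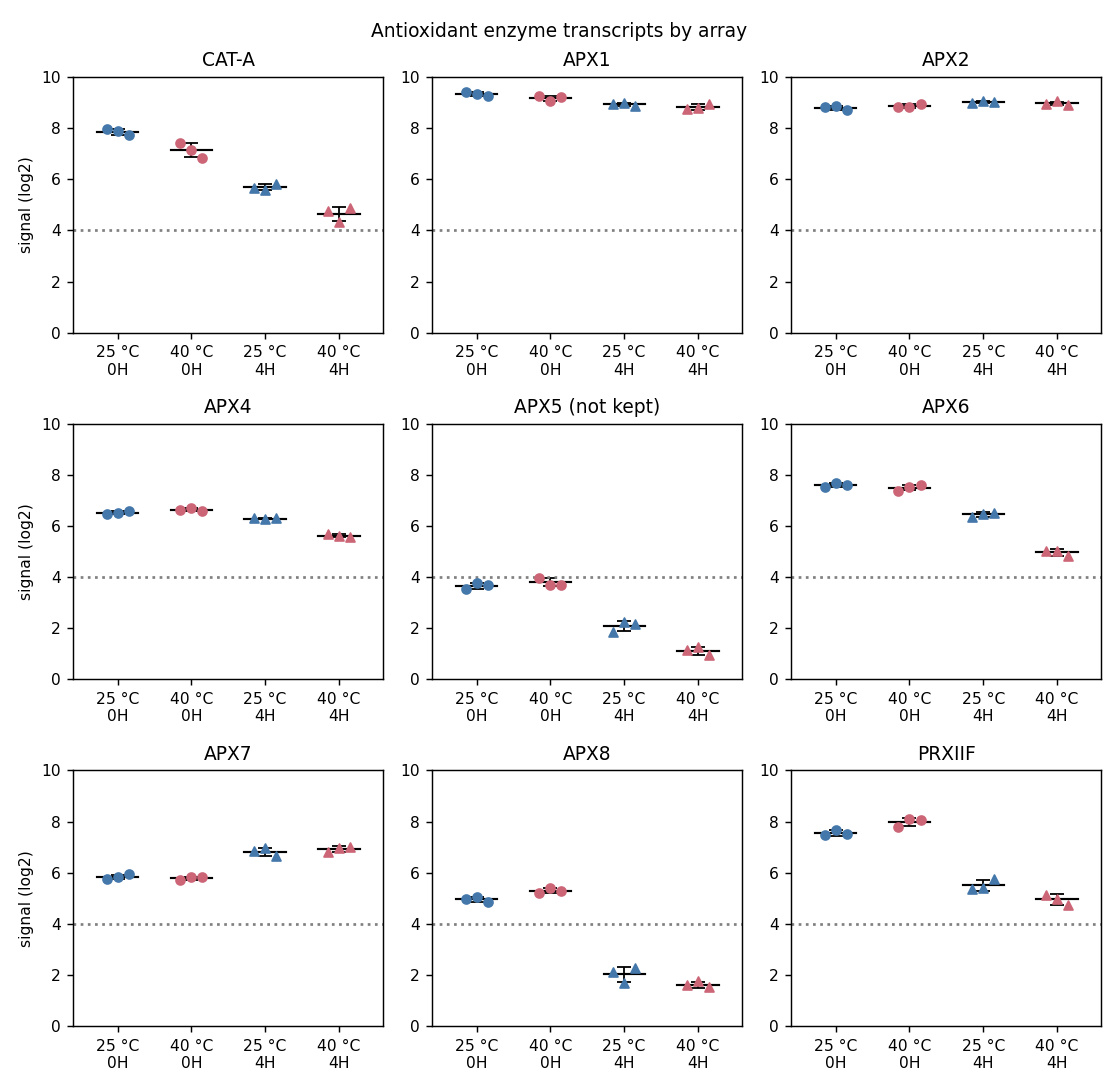
Log2 signal of 9 antioxidant genes in each of the 12 arrays, by storage temperature (blue 25 °C, red 40 °C) and suffix (circles 0H, triangles 4H). Points are arrays, bars the mean with SD (n = 3), and the dotted line is the limit of log2 4. CAT-A falls through 4 separate groups, APX6 is lower at 4H and lowest at 40 °C 4H, APX7 is higher at 4H, and APX5 stays under the limit in every array.

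CAT-A, which encodes catalase isozyme A, was lower after storage at 40 °C with both suffixes and lower at 4H than at 0H at both temperatures. At 25 °C 0H its signal was 7.96, 7.88 and 7.72 in replicates 1 to 3 (mean 7.85 ± 0.12), and at 40 °C 0H it was 7.40, 7.16 and 6.85 (7.13 ± 0.27). At 4H the signals were 5.66, 5.58 and 5.81 at 25 °C (5.68 ± 0.12) and 4.74, 4.34 and 4.87 at 40 °C (4.65 ± 0.27). All arrays of each group lay apart from those of the next, in the order 25 °C 0H, 40 °C 0H, 25 °C 4H and 40 °C 4H. Storage at 40 °C lowered the signal 1.64-fold at 0H (log2 change −0.72, SE 0.15, adjusted p = 4.63e-03 with limma) and 2.04-fold at 4H (−1.03, SE 0.15, adjusted p = 1.97e-05). Without replicates 1 and 2 of 40 °C 0H the change at 0H was −1.005 (adjusted p = 0.0131). That fit, used for the same omission below, has 1 array left in the group and assumes that it varies like the other groups. From 0H to 4H the signal fell 4.50-fold at 25 °C (−2.17, adjusted p = 3.98e-09) and 5.60-fold at 40 °C (−2.48, adjusted p = 4.95e-10). The difference between the storage effects at 4H and 0H, the interaction, was −0.31 with a 95% interval of −0.77 to 0.14, which did not pass the test (adjusted p = 0.204).

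The annotation paired 2 further probe sets with CAT-A. One of them, ending in x_at, had group means of 7.38 at 25 °C 0H, 6.87 at 40 °C 0H, 5.27 at 25 °C 4H and 4.41 at 40 °C 4H, the same order as the probe set used. Its change with storage was −0.51 at 0H (adjusted p = 0.0131) and −0.86 at 4H (adjusted p = 2.49e-05), and without replicate 3 of 40 °C 0H the first was −0.45 and was no longer called (adjusted p = 0.0609). The ending x_at, which the probe set used also has, marks sets with probes that may also match other transcripts. The remaining one, with the plain ending at, read 4.96, 4.67 and 4.37 at 25 °C 0H and 3.03, 2.91 and 2.73 at 40 °C 0H, and was under log2 4 in all 4H arrays. It passed the filter only through the 25 °C 0H arrays, so it had to be lower in the other groups. At 40 °C 0H it was at least 0.67 lower on the log2 scale, and no interaction is read from it.

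**Figure D2:**
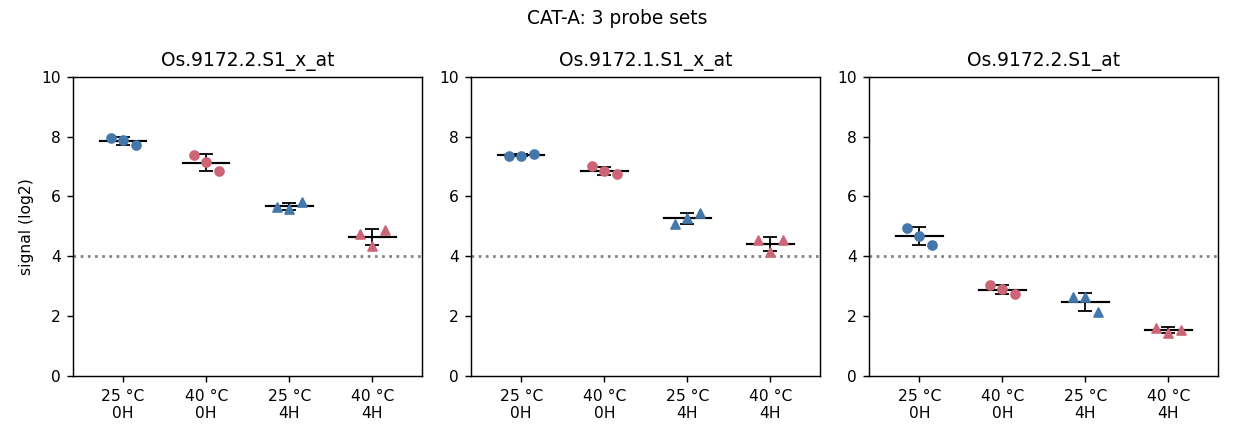
Log2 signal of the 3 CAT-A probe sets in each array, by storage temperature and suffix, with mean and SD (n = 3). The set used (left) and the other one ending in x_at step down through the 4 groups above the dotted limit of log2 4, and the third exceeds it only at 25 °C 0H, with a mean of 4.67.

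The cytosolic ascorbate peroxidases APX1 and APX2 moved little. APX1 read 9.40, 9.34 and 9.26 at 25 °C 0H (mean 9.33 ± 0.07) and 9.23, 9.04 and 9.21 at 40 °C 0H (9.16 ± 0.11). The 4H arrays gave 8.92, 9.00 and 8.87 at 25 °C (mean 8.93) and 8.74, 8.78 and 8.95 at 40 °C (SD 0.12). The 0H groups did not overlap, and the 4H groups did. Storage changed APX1 by −0.17 at 0H (SE 0.08, adjusted p = 0.139) and by −0.10 at 4H (95% interval −0.27 to 0.06, adjusted p = 0.233), neither past the threshold. With array weights the change at 0H was called (−0.19, adjusted p = 0.0397 with limma). APX1 fell from 0H to 4H by 0.40 at 25 °C (adjusted p = 2.00e-04) and by 0.34 at 40 °C (adjusted p = 8.56e-04).

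APX2 had the smallest range of group means among the kept genes. Its signals were 8.83, 8.85 and 8.70 at 25 °C 0H (8.80 ± 0.08) and 8.80, 8.83 and 8.94 at 40 °C 0H (8.86 ± 0.07). At 4H they were 8.97, 9.06 and 9.02 at 25 °C (SD 0.04) and 8.93, 9.04 and 8.91 at 40 °C (8.96 ± 0.07). The temperature groups overlapped at both suffixes. Storage changed it by 0.06 at 0H (adjusted p = 0.586) and by −0.05 at 4H (95% interval −0.20 to 0.09, adjusted p = 0.508). From 0H to 4H it rose by 0.22 at 25 °C (SE 0.07, adjusted p = 7.83e-03), while the change at 40 °C was 0.11 (95% interval −0.04 to 0.25, adjusted p = 0.145). The rise at 25 °C was not called after centring each array on its median (0.12, adjusted p = 0.121). A second kept probe set of the gene, ending in x_at, stayed between 7.91 and 8.15 in all arrays, with a change of 0.11 at 25 °C (adjusted p = 0.132), and the other 2 of the gene's probe sets lay under log2 4 throughout.

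APX4, assigned to peroxisomes in rice, separated the storage temperatures at 4H. It read 6.49, 6.49 and 6.60 at 25 °C 0H and 6.63, 6.70 and 6.59 at 40 °C 0H (6.64 ± 0.06), so the 0H groups overlapped. At 4H it read 6.30, 6.27 and 6.29 at 25 °C (6.29 ± 0.02) and 5.70, 5.59 and 5.58 at 40 °C (5.63 ± 0.07), well apart. The change with storage was 0.12 at 0H (adjusted p = 0.352) and −0.66 at 4H, a 1.58-fold fall (SE 0.08, adjusted p = 3.77e-06). The storage effect at 4H differed from that at 0H by −0.78 (SE 0.11, adjusted p = 4.04e-05). From 0H to 4H, APX4 fell 2.02-fold in 40 °C seed (−1.02, SE 0.08, adjusted p = 1.29e-08) and by 0.24 in 25 °C seed (adjusted p = 0.0138). The smaller fall was not called without replicate 3 of 25 °C 0H (−0.20, adjusted p = 0.0506) or without the filter on low signals (adjusted p = 0.0703).

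APX6, assigned to mitochondria in rice, had the largest storage effect among the kept ascorbate peroxidases. At 0H it read 7.52, 7.67 and 7.58 in 25 °C seed (7.59 ± 0.07) and 7.39, 7.51 and 7.61 in 40 °C seed (7.50 ± 0.11). At 4H it read 6.36, 6.47 and 6.52 in 25 °C seed (6.45 ± 0.09) and 5.04, 5.03 and 4.82 in 40 °C seed (4.96 ± 0.13). The 0H groups overlapped, and every 40 °C 4H array lay below every other array. The change with storage was −0.09 at 0H (95% interval −0.29 to 0.11, adjusted p = 0.559) and −1.49 at 4H, a 2.80-fold fall (SE 0.09, adjusted p = 5.68e-09). At 4H, 5.30% of the kept probe sets had a lower change than this. The difference between both storage effects was −1.40 (SE 0.13, adjusted p = 7.99e-07). From 0H to 4H, APX6 fell 2.20-fold in 25 °C seed (−1.14, adjusted p = 2.68e-08) and 5.81-fold in 40 °C seed (−2.54, adjusted p = 2.47e-12).

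APX5, the other isoform assigned to mitochondria in rice and a neighbour of APX6 in the gene table, lay just outside the limit for description. It read 3.52, 3.76 and 3.67 at 25 °C 0H and 3.98, 3.71 and 3.71 at 40 °C 0H. The 4H arrays gave 1.85, 2.24 and 2.15 at 25 °C and 1.14, 1.25 and 0.97 at 40 °C. Its 0H arrays were all above its 4H arrays, and none was tested. Just inside the limit was APX8, with a lowest 0H array of 4.87.

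Of the chloroplast forms, one was higher and one lower at 4H than at 0H. APX7, the stromal form, read 5.77, 5.83 and 5.93 at 25 °C 0H (5.84 ± 0.08) and 5.72, 5.82 and 5.83 at 40 °C 0H (5.79 ± 0.06). At 4H it read 6.84, 6.95 and 6.65 at 25 °C (6.81 ± 0.15) and 6.81, 6.97 and 7.00 at 40 °C (6.93 ± 0.11). The temperatures overlapped at each suffix, and all 4H arrays lay above all 0H arrays. APX7 rose 1.96-fold from 0H to 4H in 25 °C seed (0.97, SE 0.10, adjusted p = 2.89e-07) and 2.20-fold in 40 °C seed (1.14, adjusted p = 3.08e-08). Its change with storage was −0.06 at 0H (adjusted p = 0.745) and 0.12 at 4H (95% interval −0.09 to 0.33, adjusted p = 0.295).

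APX8, the thylakoid-bound form, was above log2 4 only in the 0H arrays. It read 4.96, 5.07 and 4.87 at 25 °C 0H and 5.20, 5.42 and 5.28 at 40 °C 0H (5.30 ± 0.11), with no overlap and a difference that did not pass the test (0.34, SE 0.17, adjusted p = 0.186). With signals under log2 4 set to 4, the same difference was called (SE 0.08, adjusted p = 0.0104 with limma). In that fit the 4H arrays of APX8 are all at 4 and add no spread to the shared estimate. At 4H it read 2.13, 1.70 and 2.27 at 25 °C (2.03 ± 0.30) and 1.60, 1.76 and 1.52 at 40 °C (1.63 ± 0.12), all under the limit. It was therefore at least 0.97 lower on the log2 scale at 4H in 25 °C seed and at least 1.30 lower in 40 °C seed. Because it passed the filter only through the 0H arrays, it had to differ in this direction. The 4H groups had an adjusted p of 0.0399, for which no size is given, and the call ended without 9 of the 12 arrays in turn (adjusted p from 0.0501 to 0.154). RBCS, the small subunit of Rubisco and the only kept gene of 3 matched leaf markers, ranged from 4.75 to 5.27 at 25 °C 0H, 5.37 to 5.68 at 40 °C 0H, 2.91 to 3.37 at 25 °C 4H and 3.13 to 3.34 at 40 °C 4H. RBCS too passed the filter only through the 0H arrays, so it had to be lower at 4H, and its part in the result was not tested.

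PRXIIF, a mitochondrial type II peroxiredoxin, had storage effects of opposite sign at 0H and 4H. It read 7.48, 7.69 and 7.52 at 25 °C 0H (7.56 ± 0.11) and 7.79, 8.08 and 8.05 at 40 °C 0H (7.97 ± 0.16). The 4H signals were 5.36, 5.40 and 5.75 at 25 °C (5.50 ± 0.22) and 5.15, 4.98 and 4.73 at 40 °C (4.95 ± 0.21). The 40 °C arrays were all higher at 0H and all lower at 4H. Storage raised it by 0.41 at 0H (SE 0.13, adjusted p = 0.0440) and lowered it 1.46-fold at 4H (−0.55, SE 0.13, adjusted p = 1.58e-03). The difference between both effects was −0.96 (SE 0.18, adjusted p = 4.15e-04). The rise at 0H was not called without replicate 1, 2 or 3 of 25 °C 0H, replicate 2 or 3 of 40 °C 0H or replicate 2 of 40 °C 4H (changes from 0.35 to 0.47, adjusted p from 0.0574 to 0.154), nor without replicates 1 and 2 of 40 °C 0H together (0.48, adjusted p = 0.183). PRXIIF fell from 0H to 4H 4.17-fold in 25 °C seed (−2.06, adjusted p = 1.66e-09) and 8.10-fold in 40 °C seed (−3.02, adjusted p = 1.38e-11).

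Whether storage at 40 °C changed these transcripts was asked at each suffix. At 0H, 2 of the 8 kept genes passed the test, PRXIIF higher and CAT-A lower. Over all 17650 kept probe sets 17.7% passed, 5.99% higher and 11.7% lower. The storage groups of 4 genes (CAT-A, APX1, APX8 and PRXIIF) did not overlap, where 37.1% of all probe sets did not. The median change was 0.0025 for the 8 genes and −0.01 for all kept probe sets.

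At 4H, 5 of the 8 genes passed, all lower: CAT-A, APX4, APX6, PRXIIF and, under log2 4 in both groups, APX8. Of all kept probe sets 74.0% passed, 30.5% higher and 43.5% lower. The first 4 of these genes had groups that did not overlap, against 76.3% of all probe sets. The median change was −0.48 for the genes, −0.55 without APX8 and −0.16 for all kept probe sets. With so many probe sets called, a call at 4H by itself sets no gene apart.

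**Figure D3:**
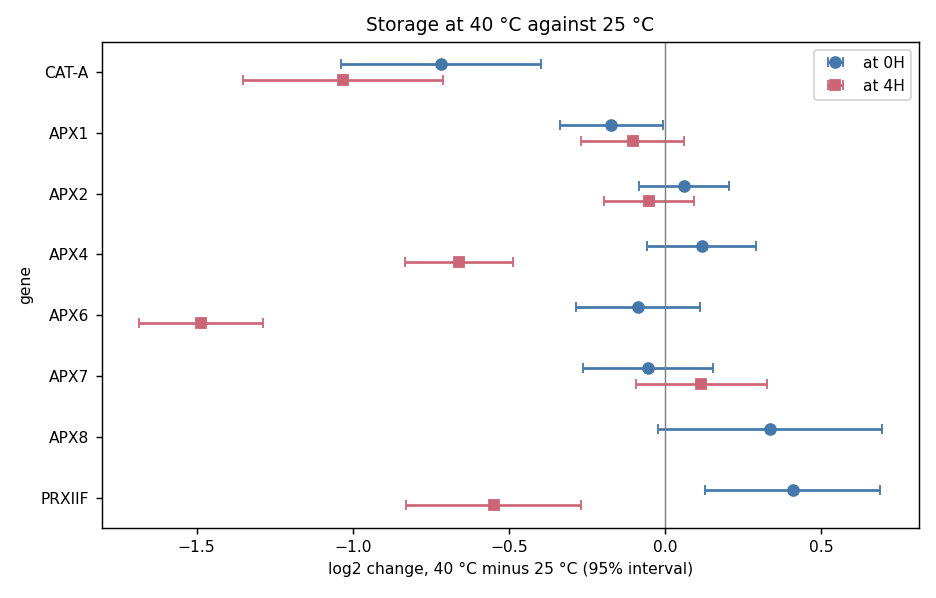
Log2 change of each kept gene with storage at 40 °C (40 °C minus 25 °C), at 0H (blue circles) and 4H (red squares), with 95% intervals from limma on 12 arrays. CAT-A lies below 0 at both suffixes, APX6 lies near 0 at 0H and at −1.49 at 4H, and PRXIIF changes side; APX8 has no 4H point because both groups lay under log2 4.

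The interaction passed for 4 of the 8 genes, all toward a lower effect at 4H: APX4, APX6, APX8 and PRXIIF. Over all kept probe sets it passed for 65.0%, 28.1% higher and 36.9% lower. The median was −0.53 for the genes, −0.31 without APX8 and −0.12 for all kept probe sets. The value for APX8, −0.74 (SE 0.24, adjusted p = 0.0131), rests on 4H signals under log2 4. With those set to 4 the effect at 4H is 0 by construction, and the value, −0.34, is only the 0H change with its sign turned. Without replicates 1 and 2 of 40 °C 0H the interaction of APX8 was no longer called (−0.72, adjusted p = 0.0745). Of the 7 genes without APX8, 3 passed. The interaction was not past the threshold for APX1 (0.07, adjusted p = 0.599), APX2 (−0.11, adjusted p = 0.321) and APX7 (0.17, adjusted p = 0.289).

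Between 0H and 4H in 25 °C seed, all 8 kept genes passed, with APX2 and APX7 higher and the other 6 lower, and the groups of all 8 were apart. Of all kept probe sets 81.9% passed, 39.9% higher and 42.0% lower, and 81.9% did not overlap. In 40 °C seed 7 of the 8 passed, APX7 higher and 6 lower, and the groups of these 7 were apart. There 87.2% of probe sets passed, 41.0% higher and 46.3% lower, and 89.4% did not overlap. APX8, which had to be lower at 4H, is in these counts. Of the 7 genes without it, all 7 passed and were apart in 25 °C seed, 5 of them lower, and 6 passed and were apart in 40 °C seed, again 5 lower. The median change of these 7 was −0.40 in 25 °C seed and −1.02 in 40 °C seed, against −0.04 and −0.13 for all kept probe sets. These comparisons use the same arrays as the storage comparisons, so they are not independent of them.

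**Figure D4:**
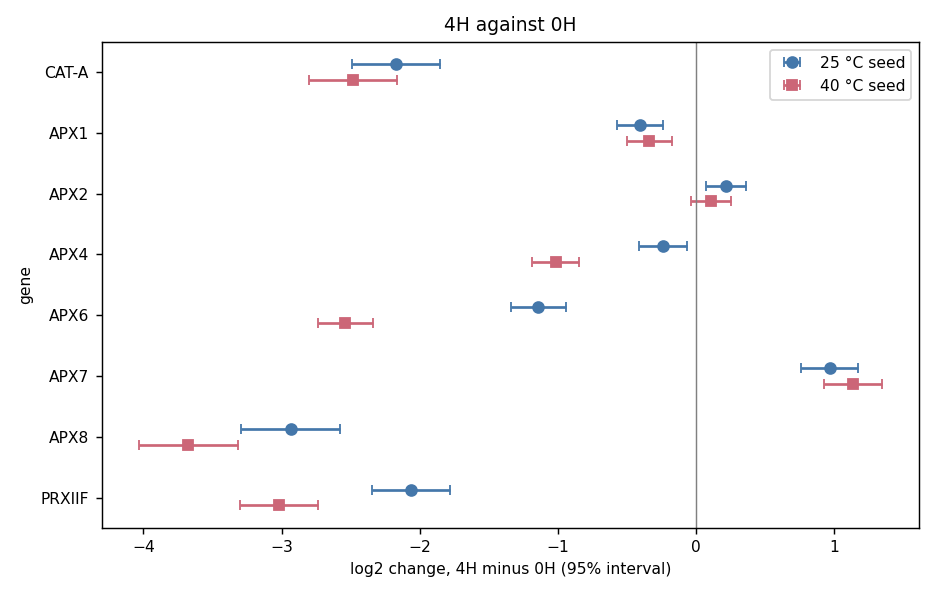
Log2 change of each kept gene from 0H to 4H (4H minus 0H), in 25 °C seed (blue circles) and 40 °C seed (red squares), with 95% intervals from limma on 12 arrays. APX7 lies above 0 in both, CAT-A, APX6 and PRXIIF lie below −1 in both, and the points of APX8 rest on 4H signals under log2 4.

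Other antioxidant genes, and the NADPH oxidase gene RBOHB, were taken from lists of 62 matched genes, of which 44 were kept. At 0H, 2 were higher and 6 lower in 40 °C seed, with a median of 0.0015, where 17.7% of all kept probe sets passed and their median was −0.01, so the share called was near the background. MDAR2, a monodehydroascorbate reductase that recycles ascorbate, fell by 0.36 (SE 0.08, adjusted p = 5.98e-03). RGRC2, a cytosolic glutathione reductase, fell by 0.32 (SE 0.07, adjusted p = 5.30e-03). The thioredoxin gene OsTrxm1 rose by 0.44 (SE 0.08, adjusted p = 2.16e-03). The count of 8 called ranged from 3 to 12 when one array was left out. It was 4 without replicate 1 of 40 °C 0H, 3 without replicate 2 and 0 without both.

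At 4H, 14 of the 44 were higher and 24 lower in 40 °C seed, with a median of −0.32. The 24 include the glutaredoxin GRXC3, which passed the filter only through the 25 °C 4H arrays and so had to be lower. Of all kept probe sets 30.5% were higher and 43.5% lower, with a median of −0.16, and the small lists that follow are described against these shares. All 4 kept peroxiredoxins of the list were lower, though the smallest change was −0.23 with overlapping groups (adjusted p = 0.0287 with limma). The peroxiredoxins included the plastid form bas1, which fell by 1.07 (SE 0.13, adjusted p = 3.66e-06), and PRXIIE-1 and PRXIIC, which fell by 0.42 and 0.47. Among the 4 superoxide dismutases, which turn superoxide into hydrogen peroxide, 3 were lower. The plastid copper/zinc form sodCp fell by 0.91 (SE 0.11, adjusted p = 3.32e-06) and the cytosolic SodCc2 by 0.55. CAT-B, another catalase, fell by 0.67 (SE 0.08, adjusted p = 3.10e-06).

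All 3 kept genes of ascorbate synthesis were lower at 4H in 40 °C seed. The GDP-mannose epimerase gene GME-1 fell by 0.86 (SE 0.09, adjusted p = 1.04e-06), and GLDH1, for the galactonolactone dehydrogenase that makes ascorbate, fell by 0.60 (SE 0.10, adjusted p = 1.13e-04). GME-2 was at least 1.01 lower, since its 40 °C arrays lay under log2 4. From 0H to 4H, however, GME-1 rose by 1.86 in 25 °C seed and by 1.21 in 40 °C seed, while GME-2 and GLDH1 did not rise.

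Of the 2 kept monodehydroascorbate reductases, MDAR2 rose at 4H by 0.53 (SE 0.08, adjusted p = 2.44e-05). MDAR5 changed by −0.04 (adjusted p = 0.615), which became 0.06 with median centring. The glutathione reductase RGRC2 rose by 0.38 (SE 0.07, adjusted p = 1.39e-04). The interaction passed for MDAR2 (0.89) and RGRC2 (0.70) and not for MDAR5 (0.14, adjusted p = 0.172). Of the 44 listed genes 13 passed toward a higher and 23 toward a lower effect at 4H. Over all kept probe sets 28.1% and 36.9% did. The 23 include all 4 kept peroxiredoxins (bas1 −1.37), all 3 kept genes of ascorbate synthesis, sodCp (−1.03) and CAT-B (−0.43). They also include GRXC3, which passed the filter only through the 25 °C 4H arrays. With storage at 4H, 10 of 27 thioredoxins and glutaredoxins were higher and 13 lower, among the latter GRXC3, which had to be lower. Those with the lowest p were the thioredoxin OsTrxh4-2, which rose by 1.53, the glutaredoxin GRXC7, which rose by 1.70 (SE 0.11, adjusted p = 7.15e-09), and OsTrx26, which fell by 1.46 (SE 0.10, adjusted p = 1.33e-08). The alternative oxidase AOX1a, a mitochondrial bypass of the cytochrome chain, rose by 0.85 (SE 0.18, adjusted p = 7.35e-04). RBOHB, an NADPH oxidase that makes superoxide, rose by 0.36 (SE 0.09, adjusted p = 3.19e-03). With storage at 0H, however, it changed by −0.30 (adjusted p = 0.0383 with limma). From 0H to 4H it changed by −1.72 in 25 °C seed and −1.06 in 40 °C seed.

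**Figure D5:**
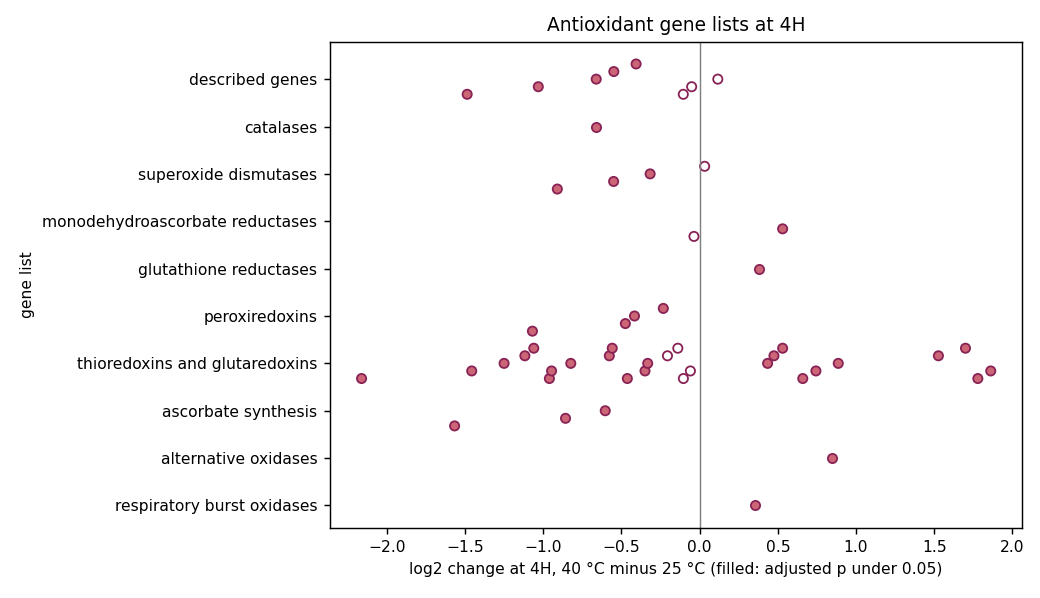
Log2 change at 4H (40 °C minus 25 °C) of the 8 kept genes and of each kept gene in the other lists. The other lists hold antioxidant genes and the NADPH oxidase gene RBOHB. Each gene is 1 point, filled where the adjusted p is under 0.05. The peroxiredoxins and the ascorbate synthesis genes lie to the left of 0, RGRC2 lies at 0.38, and the thioredoxins and glutaredoxins spread to both sides. The vertical offset within a list has no meaning.

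From 0H to 4H, 16 of the 44 listed genes were higher and 22 lower in 25 °C seed (median −0.24), and 18 were higher and 25 lower in 40 °C seed (median −0.63). Over all kept probe sets 81.9% and 87.2% passed, with medians of −0.04 and −0.13. AOX1a, GRXC3 and GRXS3 were above log2 4 in no 0H array, so AOX1a and GRXS3 had to be higher at 4H. GRXC3 passed the filter only through the 25 °C 4H arrays, so it had to be higher at 4H in 25 °C seed. In 40 °C seed both of its groups lay under log2 4, though it is counted among the 18 higher. The 4 peroxiredoxins were lower at both temperatures: bas1 changed by −1.34 in 25 °C seed and by −2.71 in 40 °C seed. Of the 4 superoxide dismutases 3 were lower and 1 higher at both. The higher one was the mitochondrial manganese form sodA, which rose by 1.19 in 25 °C seed (adjusted p = 1.02e-09) and 1.31 in 40 °C seed (adjusted p = 1.97e-10), and sodCp changed by −1.79 and −2.82. RGRC2 rose by 2.10 and 2.80 in these comparisons. Of the 27 thioredoxins and glutaredoxins 11 were higher and 12 lower in 25 °C seed, and 12 higher and 14 lower in 40 °C seed. The higher ones include GRXC3 and GRXS3. GRXS5 rose by 3.85 and 6.43, and OsTrx26 fell by 1.97 and 3.66. AOX1a, one of those that had to be higher, was at least 0.98 and at least 1.83 higher.

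The genes whose profiles over the 12 arrays lay nearest to each member were sought among 1661 other genes with a usable short name, by the root mean square difference of the log2 signals after centring each gene on its own mean. This is a description of likeness in these arrays. Nearest to CAT-A were the betaine aldehyde dehydrogenases BADH2 (0.189) and BADH (0.218). Nearest to APX6 were Smt1-1 (0.120) and OsSK3 (0.131), and nearest to PRXIIF were MADS22 (0.127) and OsPP2C05 (0.157). The ribosomal protein genes RPL11 (0.0824) and RPL9 (0.0827) lay nearest to APX4. For APX7 they were SPT16 (0.0890) and eIF-4G (0.119), and for APX8 they were ETR4 (0.206) and HSF05 (0.260). APX1 lay nearest to CSLE2 (0.0967) and CYCT1-1 (0.106), and APX2 to GSH1-1 (0.0693) and GOS2 (0.0708). The median difference to the searched genes was between 0.62 and 1.67.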

How the data were processed

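Total RNA of 12 rice samples (4 groups of 3) was measured on Affymetrix Rice Genome Arrays. The deposited values are log2 signals per probe set, made by the authors with GCRMA per the submitters' processing notes, which corrects background by probe sequence and normalizes across arrays, so that a general change in RNA amount is not visible. The version is not given in the sources used here, and base 2 was inferred from the range of the values. Of 57381 probe sets, 123 controls were left out, and 17650 of the other 57258 lay above log2 4 in at least 3 arrays and were tested. In the annotation, 22436 probe sets had 1 gene, 95 several and 34850 were not listed. A RefSeq table of assembly ASM3414082v1 served for names only, and the authors' build is not given in the sources used here, so no coordinates are printed.

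The tests used limma 3.58.1 (R 4.3.3) on group means of all 12 arrays, with contrasts, eBayes with a variance trend, two-sided, Benjamini-Hochberg adjusted p over all kept probe sets with 0.05 as threshold, for each of 5 comparisons. The fit was tested on simulated data. A group wholly under log2 4 was replaced by 4 and the change given as "at least". Named were every kept member and its other probe sets, listed members left out, at most 3 genes of each list with the lowest p per comparison, the 2 nearest profiles of a member, and marker genes. Class III peroxidases and a histone methyltransferase named TRX1 were kept out of the lists. The members and lists were chosen with earlier results of these data known. Alternatives were other filters, quantile normalization, median centring, a floor at log2 4, no variance trend, array weights, the mean of a gene's kept probe sets, only the groups compared, the replicate number as a block, and left-out arrays.

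Same-numbered replicates deviated together in 4H against 0H at 25 °C (correlations across probe sets 0.229, 0.126 and 0.423, all over 0.1), though replicate 2 correlated more with another number (0.205). In each other comparison at least 1 pair was under 0.1. The labels do not state a pairing, which was therefore judged from these correlations, and the reported fit has no block.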

Additional observations from a re-analysis of the deposited data

Results flagged for a closer look

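For 4 of the 8 kept genes the effect of storage at 40 °C differed between 4H and 0H in the interaction test of limma. Of all kept probe sets 65.0% passed the same test, so this share is not above the background. The value, as the effect at 4H minus that at 0H on the log2 scale, was −1.40 for APX6, −0.96 for PRXIIF and −0.78 for APX4. For APX8 it was −0.74, which rests on 4H signals under log2 4 and is no measured size. With those set to 4 it was −0.34, the 0H change with its sign turned. The storage groups of APX4 and APX6 overlapped at 0H and were apart at 4H, and those of PRXIIF were apart in opposite directions.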

How the results depend on the processing

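Of 2232 values of single genes under alternatives, 2185 kept their direction and their side of the threshold, 37 lost a call, 5 gained one and 5 changed sign. Of the lost calls 16 were of APX8 at 4H, under log2 4 in both groups, and 10 of PRXIIF at 0H. None of the 5 sign changes touched a called value: APX6 at 0H was 0.0188 without replicates 1 and 2 of 40 °C 0H (which leaves 1 array there), APX2 and MDAR5 at 4H were 0.0422 and 0.0569 with median centring, the interaction of APX1 was −0.0038 with quantile normalization, and that of CAT-A was 0.0641 with the mean of its kept probe sets. Counts at 0H moved most. The members called numbered 1 without a filter and without the variance trend, and 1 to 2 with one array left out. With array weights they numbered 3, as APX1 gained a call. With a floor at log2 4 the number stayed at 2, but PRXIIF lost its call (adjusted p = 0.0511 with limma) and APX8 gained one (adjusted p = 0.0104). The listed pathway genes called numbered 5 without a filter, 17 with array weights and 0 without those replicates, and 3 to 12 with one array left out. The probe sets called, 3129, became 5558 with array weights, 888 without those replicates and 2079 to 3847 with one array left out. A filter at log2 6 tests fewer probe sets, which left 9525 calls for 4H against 0H at 25 °C and 10045 at 40 °C, and no value for APX8. The cause of the other shifts was not tested. With the replicate number as a block, 3498, 13307, 14597, 15506 and 11734 probe sets were called (0H, 4H, 25 °C, 40 °C, interaction), and among the members the block changed only the call of APX8 at 4H (adjusted p = 0.0559). The fit of only the groups compared does not apply to the interaction. At 0H 33.8% of the calls were higher, and 43.2% with median centring. That centring moved the median change of all kept probe sets from 0H to 4H at 25 °C from −0.04 to −0.14. Signals under log2 4 limit APX5, APX8 and 1 CAT-A probe set.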
